A study of Mus musculus with 2 samples.

Results

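The genes described are the mouse receptors for the constant part of IgG, Fcgr1, Fcgr2b, Fcgr3 and Fcgr4, with Fcer1g, which encodes their shared signalling chain. They were taken by symbol, 5 of the 28692 genes in the count tables, and read mainly in the myeloid cells of the tumour. A myeloid cell was a barcode with at least 5 unique molecular identifiers (UMIs, the counted RNA molecules) of lysozyme (Lyz2), 0 of the T cell genes Cd3d, Cd3e and Cd3g, and under 10% mitochondrial UMIs. This gave 39 cells with TAK-981 and 43 with vehicle. For Fcgr2b the tumour cells were read as well, defined by at least 1 UMI of Cd79a, a B cell receptor chain, with 0 UMIs of Lyz2 and of the 3 Cd3 genes. They numbered 1754 and 2191 and may hold host B cells.

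A20 is a B cell lymphoma line from the Balb/c mouse strain, injected here under the skin of Balb/c mice, 1000000 cells to each. Tumours were left to reach about 300 mm3 before dosing. Mice of the treated arm received TAK-981 intravenously at 7.5 mg/kg, and control mice received 20% HPbCD, a cyclodextrin vehicle. TAK-981 blocks the first enzyme of sumoylation, in which the peptide modifier SUMO is joined to target proteins. Tumours of both arms were removed after 8 h, pushed through a 70 µm filter, cleared of dead cells and loaded on a droplet kit that reads the 5' end of transcripts. The sources used here give neither the age of the mice nor the number of mice behind a library. Because there was 1 library per arm, no test between arms was possible. All intervals are 95% intervals for counting error and leave out variation between cells and mice.

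Fc gamma receptors let cells read antibody. The receptors encoded by Fcgr1, Fcgr3 and Fcgr4 are activating: they need the Fcer1g chain, whose ITAM motif recruits the kinase Syk and starts phagocytosis, oxidant release and killing of antibody-coated targets. Fcgr2b encodes the inhibitory receptor, whose ITIM motif recruits phosphatases that restrain the same signals, and it is the only Fc gamma receptor of B cells. In tumours, myeloid cells with these receptors carry out much of the effect of therapeutic antibodies. Fcgr1 is a classical target of interferon gamma, whose targets often carry a gamma-activated site (GAS), and macrophage expression of the family leans on the factor PU.1.

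The 250 bases before the start of 3 receptor genes are shown for contrast: Fcgr1, higher in TAK-981 myeloid cells, Fcgr2b, lower there, and Fcgr4, at a like level. They run 5' to 3' on the gene's strand and come from RefSeq on build GRCm38.p6. The windows are chr3:96293970-96294219 (minus strand) for Fcgr1, chr1:170976072-170976321 (minus strand) for Fcgr2b and chr1:171018676-171018925 (plus strand) for Fcgr4. Capitals mark matches to the GAS spelling TTCNNNGAA, to TTTCNNTTTC, a spelling of the interferon-stimulated response element (ISRE), or to GAGGAA, a PU.1 core, each searched on both strands.
Fcgr1: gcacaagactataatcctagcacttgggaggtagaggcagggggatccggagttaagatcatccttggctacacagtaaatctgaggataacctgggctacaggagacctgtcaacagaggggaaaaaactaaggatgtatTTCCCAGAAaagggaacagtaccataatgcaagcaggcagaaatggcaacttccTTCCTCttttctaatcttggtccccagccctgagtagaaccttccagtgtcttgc
Fcgr2b: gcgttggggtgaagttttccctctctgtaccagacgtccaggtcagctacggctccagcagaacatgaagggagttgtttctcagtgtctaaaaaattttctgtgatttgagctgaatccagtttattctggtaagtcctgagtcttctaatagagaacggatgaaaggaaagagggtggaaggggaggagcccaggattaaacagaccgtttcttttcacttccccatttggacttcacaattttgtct
Fcgr4: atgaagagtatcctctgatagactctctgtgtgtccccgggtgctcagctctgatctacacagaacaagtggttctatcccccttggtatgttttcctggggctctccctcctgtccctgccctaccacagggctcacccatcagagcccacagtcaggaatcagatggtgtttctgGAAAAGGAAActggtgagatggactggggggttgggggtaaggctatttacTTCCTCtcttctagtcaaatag
The Fcgr1 window held 1 GAS match, TTCCCAGAA, at bases -109 to -101 before the start, and 1 PU.1 core at -55 to -50. The Fcgr2b window held none of the 3 spellings. In the Fcgr4 window an ISRE match, GAAAAGGAAA, lay at -73 to -64 and a PU.1 core at -22 to -17. No match overlapped another. Both listed starts of Fcgr3 had a PU.1 core and nothing else, and the Fcer1g window had no match. Of 32851 promoter windows of this length, 7.02% held a GAS match, 2.98% an ISRE match and 23.3% a PU.1 core. These are matches of letters and not measured binding.

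The TAK-981 library held 2396 barcodes with a median of 11840.5 UMIs, and the vehicle library 2579 with a median of 19608. Mitochondrial UMIs reached 10% in 15.7% and 4.81% of barcodes, none of them with 5 or more Lyz2 UMIs. The libraries shared 11 barcodes, of which 0 were myeloid. Median depth of the myeloid cells was 8287 (TAK-981) and 10561 (vehicle) UMIs, that of A20 cells 16195 and 22309. For this reason shares of cells are also given after each cell was thinned to 4000 UMIs. Myeloid cells made up 1.93% (1.38 to 2.63%) and 1.75% (1.27 to 2.35%) of cells under the mitochondrial limit.

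Most cells of the myeloid class carried general myeloid markers, but the makeup of the class differed between the libraries. Cd14, a co-receptor for bacterial lipid, was found in 36 of 39 TAK-981 and 40 of 43 vehicle cells, Cd68 in 35 and 41 and Csf1r in 31 and 38. The 5 monocyte markers reported here summed to 6936 CPM (counts scaled to a class total of 1000000 UMIs) with TAK-981 and to 2257 with vehicle, with Ly6c2 3.40-fold and Plac8 3.10-fold higher. Their sum per cell ran from 0 through a median of 59 to 164 in TAK-981 cells and from 0 through 20 to 101 in vehicle cells. The 10 macrophage markers summed to 3255 and 5268 CPM, 1 to 90 and 1 to 214 UMIs per cell. Among them C1qa, C1qb and C1qc, complement genes of mature macrophages, were at 0 UMIs in the TAK-981 cells and at 100, 104 and 93 UMIs in the vehicle cells. Mrc1 was found in 1 TAK-981 and 16 vehicle cells, Adgre1 in 11 and 24 and Apoe in 19 and 29. Ms4a7 was found in 5 and 6 cells, with 6 and 59 UMIs. The 7 neutrophil markers summed to 389 and 57.5 CPM (0 to 19 and 0 to 7 UMIs per cell), with Cxcr2, Retnlg and Ly6g at 0 in both. Mmp8 had 64 UMIs in 19 TAK-981 cells against 4 in 4 vehicle cells, and S100a8 46 in 12 against 9 in 4. Csf3r had 23 UMIs against 17 and S100a9 8 against 0. The 7 B cell and A20 markers summed to 201 and 153 CPM, in 14 cells of each library, with at most 29 and 43 UMIs per cell. The class held 2 TAK-981 and 5 vehicle cells with under 20 Lyz2 UMIs, against medians of 269 and 330. Fcer1g was at 1817 CPM (1272 to 2515) and 1284 CPM (1015 to 1603) in them, and whether all were myeloid was not tested. With a limit of 10 Lyz2 UMIs the log2 ratio was 2.47 for Fcgr1 and -0.81 for Fcgr2b. The 5 cDC2 markers, of conventional dendritic cells, summed to 209 CPM in 7 cells and 368 CPM in 17 cells. Of these Mgl2 had 39 and 138 UMIs, Clec10a 3 and 27, Cd209a 32 and 23, Flt3 1 and 3 and Zbtb46 1 and 1. Mast cell and basophil markers were at 0. Ratios of the receptors are given below without the C1q-bearing cells. They are also given without the cells with 5 or more UMIs of Mgl2 and Cd209a together, named Mgl2/Cd209a cells. With Flt3 and Zbtb46 near 0, these were not shown to be dendritic cells.

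With TAK-981, myeloid cells had more transcripts of the activating receptor Fcgr1 and fewer of the inhibitory receptor Fcgr2b, while Fcgr3 and Fcgr4 lay at like levels. Fcgr1 was 5.72-fold higher and Fcgr2b 1.69-fold lower, and the shared chain Fcer1g was 1.21-fold higher. Of the 5 genes 1 was at least 2-fold higher and 0 at least 2-fold lower. Among all 6372 genes with 10 or more UMIs in these cells, 11.1% were at least 2-fold higher and 13.7% at least 2-fold lower, with a median log2 ratio of -0.07. Among the 2336 genes with 50 or more UMIs the shares were 10.0% and 5.99%. All 5 genes passed the minimum of 10 UMIs, and all but Fcgr4 passed that of 50. UMI counts carry no term for transcript length, so levels of different genes are set side by side as CPM, although capture may differ between genes.

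**Figure D1:**
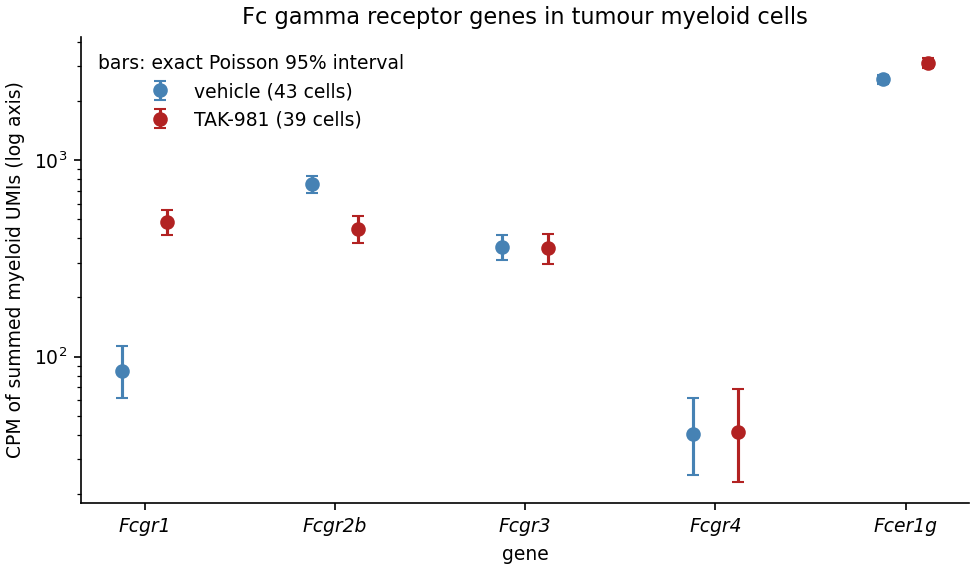
CPM of summed myeloid UMIs (log axis) for the 5 genes in the vehicle (43 cells) and TAK-981 (39 cells) libraries; points are single libraries and bars exact Poisson 95% intervals. The bars of Fcgr1 (84.3 against 482) and Fcgr2b (751 against 444) do not overlap between libraries, and those of Fcgr3 and Fcgr4 do.

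Fcgr1 (ENSMUSG00000015947) encodes CD64, the high-affinity receptor, which also binds single IgG molecules. TAK-981 myeloid cells held 175 of its UMIs and vehicle myeloid cells 44, that is 482 CPM (413 to 559) and 84.3 CPM (61.3 to 113). The ratio was 5.72 (4.09 to 8.15), or 2.52 on the log2 scale (2.03 to 3.03). By ratio, 135 of the 6372 genes (2.12%) lay above it. Cells held from 0 through a median of 2 to 22 Fcgr1 UMIs with TAK-981 and from 0 through 0 to 8 with vehicle. The ranges overlapped at the low end, where both libraries had cells with none, and only TAK-981 cells went beyond 8. At least 5 UMIs were found in 14 of 39 and 3 of 43 cells. The cell with the most Fcgr1 carried 12.6% of the TAK-981 and 18.2% of the vehicle UMIs, and without that cell in each library the log2 ratio was 2.61.

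At least 1 Fcgr1 UMI was found in 28 of 39 TAK-981 cells (71.8%, exact interval 55.1 to 85.0%) and 20 of 43 vehicle cells (46.5%, 31.2 to 62.3%). Thinned, the shares were 59.0% (42.1 to 74.4%) and 23.3% (11.8 to 38.6%). Fcgr1 was rare in the A20 and T cell classes. Both were defined by 0 Lyz2 UMIs, which removes barcodes with myeloid RNA, so background from free RNA was not measured. In A20 cells, which are deeper, Fcgr1 was found in 0.0570% and 0.228% of cells, and in T cells (at least 2 Cd3 UMIs, 0 Lyz2 and 0 Cd79a, median depth 6623 and 8148) in 0 of 35 and 0 of 47, which allows shares of up to 8.57% and 6.38% (3 cells), or 10.0% and 7.55% by the exact interval. Myeloid cells thus held 90.2% of the TAK-981 library's Fcgr1 UMIs and 89.8% of the vehicle library's, while making up 1.63% and 1.67% of barcodes. Another 18 TAK-981 UMIs lay in cells of no class.

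The Fcgr1 ratio was also computed in parts of the myeloid class. In cells with a Ccr2 UMI and none of C1qa, C1qb and C1qc, 31 of the TAK-981 and 29 of the vehicle library, the log2 ratio was 2.74. Without the 6 vehicle cells that held 5 or more C1q UMIs it was 2.70. Those cells had a higher Fcgr1 level (131 CPM, 67.9 to 230) than the other vehicle cells (74.3 CPM, 50.8 to 105), with overlapping intervals. The 6 vehicle cells with 5 or more Mgl2 and Cd209a UMIs had a lower Fcgr1 level, 21.2 CPM (2.57 to 76.7) on 2 UMIs, and the 2 such TAK-981 cells were at 466 CPM (241 to 815). Without these Mgl2/Cd209a cells the log2 ratio was 2.30, the lowest of the values computed for Fcgr1. Without the 2 TAK-981 cells that held 10 or more S100a8 and S100a9 UMIs the log2 ratio was 2.57, and without cells with a Cd79a UMI 2.47. Ccr2 was 1.36-fold higher in the TAK-981 class, and the other monocyte markers are not given within the Ccr2 cells. Whether the higher monocyte markers of the TAK-981 cells had a part in the Fcgr1 difference was not tested.

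**Figure D2:**
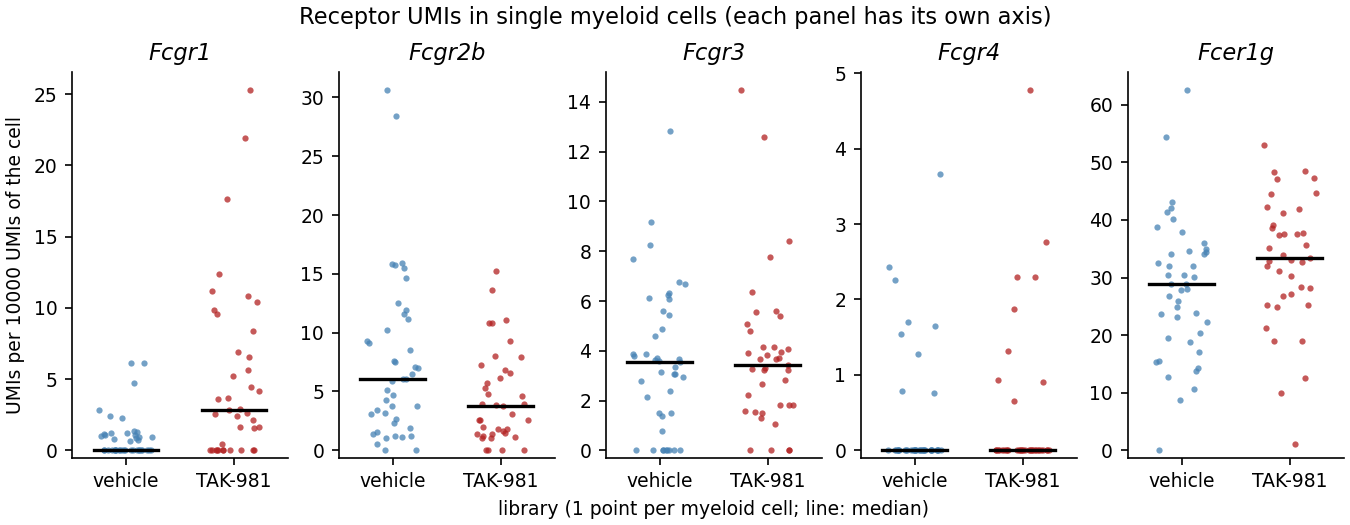
UMIs of each gene per 10000 UMIs of the cell, 1 point per myeloid cell, with the median as a line and a separate axis for each gene. Fcgr1 has a median of 0 with vehicle and 2.86 with TAK-981, and the medians of Fcgr2b are 6.07 and 3.74.

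Fcgr3 (ENSMUSG00000059498) encodes CD16, a low-affinity activating receptor for IgG in immune complexes. Its UMIs numbered 129 (TAK-981) and 188 (vehicle), 355 CPM (297 to 422) and 360 CPM (311 to 416). The log2 ratio of -0.02 (-0.35 to 0.31) bounds any difference at about 1.28-fold lower and 1.24-fold higher, as far as counting error goes. Its cells ranged from 0 through 3 to 11 UMIs with TAK-981 and from 0 through 4 to 22 with vehicle, which is broad overlap. It was detected in 35 of 39 and 34 of 43 cells, and in 66.7% and 69.8% of cells after thinning. Nearly all of its UMIs were myeloid, 98.5% and 98.4%, and A20 cells held 2 and 1. The log2 ratio was 0.15 without the C1q-bearing cells and 0.08 without the Mgl2/Cd209a cells.

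Fcgr4 (ENSMUSG00000059089), which encodes the activating receptor with a preference for IgG2a and IgG2b, was the scarcest member. It had 15 and 21 UMIs, 41.3 CPM (23.1 to 68.2) in TAK-981 and 40.2 CPM (24.9 to 61.5) in vehicle cells. Its log2 ratio was 0.04 (-1.02 to 1.06), an interval that holds anything from a 2.03-fold lower to a 2.09-fold higher level, so a smaller difference was not detectable at this depth. It was found in 9 cells of each library, with at most 3 and 6 UMIs. A20 cells held 4 and 9 Fcgr4 UMIs, and T cells 0. Without the C1q-bearing cells the Fcgr4 log2 ratio was 0.35 and without the Mgl2/Cd209a cells 0.08.

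Fcer1g (ENSMUSG00000058715), the common gamma chain without which the activating receptors are not held at the surface, was the most abundant of the 5. With 1132 and 1341 UMIs it stood at 3119 CPM (2940 to 3307) and 2570 CPM (2434 to 2711), a ratio of 1.21 (1.12 to 1.31). Cells held 1 to 51 UMIs with a median of 28 with TAK-981 and 0 to 72 with a median of 30 with vehicle, so single cells overlapped over nearly the whole range. It was found in 39 of 39 and 42 of 43 cells. In T cells it had 9 UMIs in 2 of 35 cells and 7 in 1 of 47, and in A20 cells 29 UMIs in 7 and 25 in 9. The Fcer1g log2 ratio, 0.28 in all myeloid cells, was 0.29 without the C1q-bearing cells and 0.25 without the Mgl2/Cd209a cells. Lyz2, which defined the class, was at 27436 and 27428 CPM.

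Fcgr2b (ENSMUSG00000026656) encodes CD32B, the inhibitory receptor. TAK-981 myeloid cells held 161 of its UMIs and vehicle myeloid cells 392, 444 CPM (378 to 518) and 751 CPM (679 to 829). That is 1.69-fold lower (1.41 to 2.05), a log2 ratio of -0.76 (-1.03 to -0.49). In size this difference was less unusual than that of Fcgr1: of 6372 genes 19.3% had a lower ratio, and of the 2336 genes with 50 or more UMIs 9.97% did. Cells held 0 to 15 UMIs with a median of 4 with TAK-981 and 0 to 32 with a median of 6 with vehicle. The low ends overlapped, and cells with more than 15 UMIs were found only among the vehicle cells. Per 10000 UMIs of the cell the medians were 3.74 and 6.07 and the highest values 15.2 and 30.6.

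Most cells of both libraries held Fcgr2b, with fewer UMIs per cell in the TAK-981 library. A UMI was found in 35 of 39 TAK-981 and 41 of 43 vehicle cells, and after thinning in 76.9% (60.7 to 88.9%) and 81.4% (66.6 to 91.6%), intervals that overlap. Thinned cells held on average 1.79 and 2.79 UMIs. At least 5 UMIs were found in 16 and 25 cells. Of the 392 Fcgr2b UMIs of the vehicle class, 93 lay in the 6 Mgl2/Cd209a cells and 299 in the other 37 cells. Against 751 CPM (679 to 829) for the class that includes them, these 6 cells were at 987 CPM (797 to 1210). The 2 such TAK-981 cells were at 622 CPM (356 to 1010). The log2 ratio was -0.70 without these cells of both libraries, -0.74 without the C1q-bearing vehicle cells and -1.03 in the cells with Ccr2 and no C1q. The macrophage markers were lower alongside Fcgr2b, 3255 against 5268 CPM, and their part in it was not tested.

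Transcripts of Fcgr2b and Fcgr3 are alike in part, so the split between these receptors is uncertain. In the GENCODE M21 transcripts they shared 166 stretches of 50 bases, 4.48% of those of Fcgr2b and 10.2% of those of Fcgr3, and reads there fit either gene. Counted against all other genes, Fcgr2b shared 249 stretches (6.72%). Within the first 500 bases, at the 5' end, 6.98% of the stretches of Fcgr2b and 11.7% of those of Fcgr3 were shared with some other gene. Fcgr1, Fcgr4 and Fcer1g shared none with any other gene.

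The makeup of the receptor transcripts differed with it. In TAK-981 cells Fcgr1 gave 36.5% of the UMIs of the 4 receptors, Fcgr2b 33.5%, Fcgr3 26.9% and Fcgr4 3.13%. In vehicle cells Fcgr2b gave 60.8%, Fcgr3 29.1%, Fcgr1 6.82% and Fcgr4 3.26%. By level, Fcgr1 and Fcgr2b were not apart beyond counting error in TAK-981 cells, and the interval of Fcgr3, next below, overlapped both. In vehicle cells, in the order Fcgr2b, Fcgr3, Fcgr1, Fcgr4 the first 3 did not overlap, and the intervals of Fcgr1 and Fcgr4 just met (61.3 to 113 against 24.9 to 61.5).

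Activating receptors together (Fcgr1, Fcgr3 and Fcgr4) made up 319 of 480 receptor UMIs, 66.5% (62.0 to 70.7%), in TAK-981 cells and 253 of 645, 39.2% (35.4 to 43.1%), in vehicle cells. The difference was 27.2 percentage points (21.3 to 32.9), and thinning left the shares at 66.5% and 39.7%. In the cells with Ccr2 and no C1q the difference was 34.0 points, without the C1q-bearing cells 29.8 and without the Mgl2/Cd209a cells 26.4. These are shares of transcripts and not of receptors at the surface.

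The shift was visible within single cells. Fcgr1 UMIs outnumbered Fcgr2b UMIs in 17 of 39 TAK-981 cells and 1 of 43 vehicle cells, and after thinning in 13 and 3. The reverse held in 17 and 37 cells. Both genes were found together in 25 TAK-981 and 20 vehicle cells, Fcgr2b alone in 10 and 21, and Fcgr1 alone in 3 and 0. The activating receptors together outnumbered Fcgr2b in 26 TAK-981 and 14 vehicle cells. All 4 receptors were found in 7 cells of each library, and none of them in 1 and 2.

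**Figure D3:**
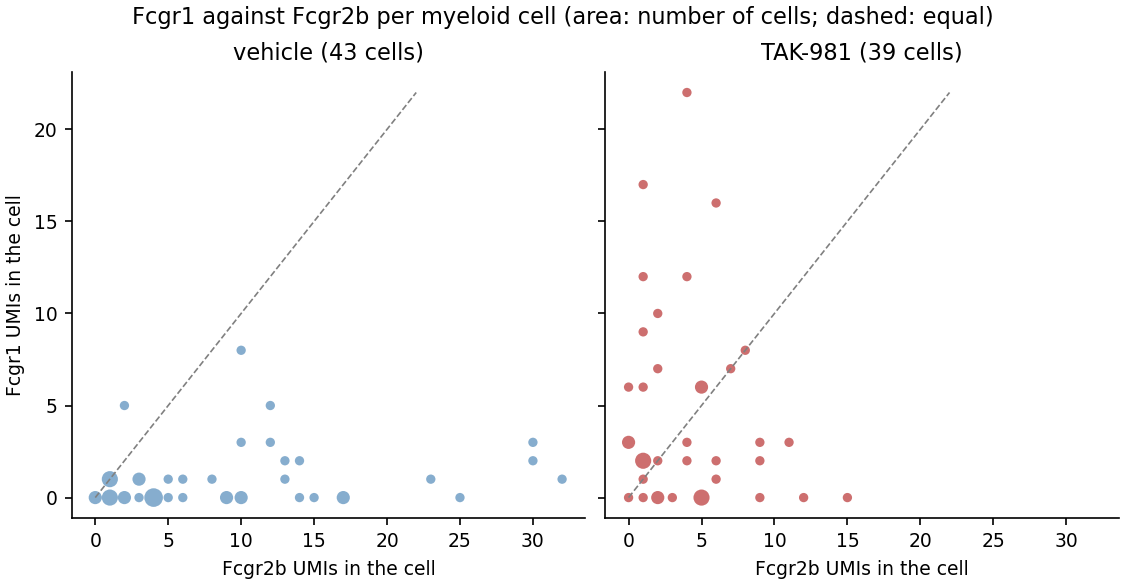
Fcgr1 UMIs (vertical axis) against Fcgr2b UMIs (horizontal axis) in each myeloid cell, vehicle left and TAK-981 right; the area of a point gives the number of cells and the dashed line marks equal counts. Above the line lie 1 of 43 vehicle cells and 17 of 39 TAK-981 cells.

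Across cells of 1 library the members moved together only loosely. On log2(1 + UMIs per 10000), Pearson's r of Fcgr1 with Fcgr2b was -0.16 over the 39 TAK-981 and 0.22 over the 43 vehicle cells. With Fcgr4 it was 0.34 and 0.39, and for Fcgr2b with Fcgr3 0.36 and 0.50. The cells share a library and differ in depth, and the counts are sparse, so these values describe these cells alone. Among 947 genes with 50 or more UMIs in each library, those most like Fcgr1, by the smaller r of the 2 libraries, were Ms4a6b (0.46), the interferon-stimulated Isg15 (0.46, and 0.69 in TAK-981 cells) and Ms4a6d (0.46). Fcgr3 was most like the tumour necrosis factor receptor Tnfrsf1a (0.45) and Lyz2 (0.43). Fcer1g was most like Tyrobp (0.70, and 0.91 in vehicle cells), the other ITAM adaptor of myeloid cells, followed by Lst1 (0.64) and the lysosomal gene Psap (0.58). No gene reached 0.40 with Fcgr2b or Fcgr4.

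In A20 cells Fcgr2b was the Fc gamma receptor that was read, at a far lower level than in myeloid cells. TAK-981 A20 cells held 715 of its UMIs and vehicle A20 cells 1015, 22.0 CPM (20.4 to 23.7) and 19.1 CPM (18.0 to 20.4). The ratio was 1.15 (1.04 to 1.27), a log2 ratio of 0.20 (0.06 to 0.34), but it turned to -0.046 when each cell was thinned to 4000 UMIs, so no direction can be given. Cells held 0 to 25 and 0 to 13 UMIs, with a median of 0 in both. Detection reached 23.1% (21.2 to 25.2%) and 26.4% (24.6 to 28.3%) of cells, and 7.01% and 7.21% after thinning. T cells, of lower depth, had Fcgr2b in 0 of 35 and 0 of 47.

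The level of Fcgr2b in A20 cells differed with depth in the TAK-981 library. From the shallowest to the deepest of 4 equal groups of its A20 cells the level was 16.8, 18.4, 23.1 and 23.7 CPM, and in the vehicle library 18.0, 19.5, 17.3 and 20.5 CPM. Per UMI, myeloid cells held 20.1 times (16.9 to 23.9) as much Fcgr2b as A20 cells with TAK-981 and 39.2 times (34.8 to 44.1) with vehicle. Because A20 cells were so many, they still held most of the gene's UMIs: 71.8% (TAK-981) and 68.8% (vehicle), against 16.2% and 26.6% in myeloid cells. Other members were near 0 in A20 cells, with 1 and 5 Fcgr1 UMIs over 1754 and 2191 cells.

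**Figure D4:**
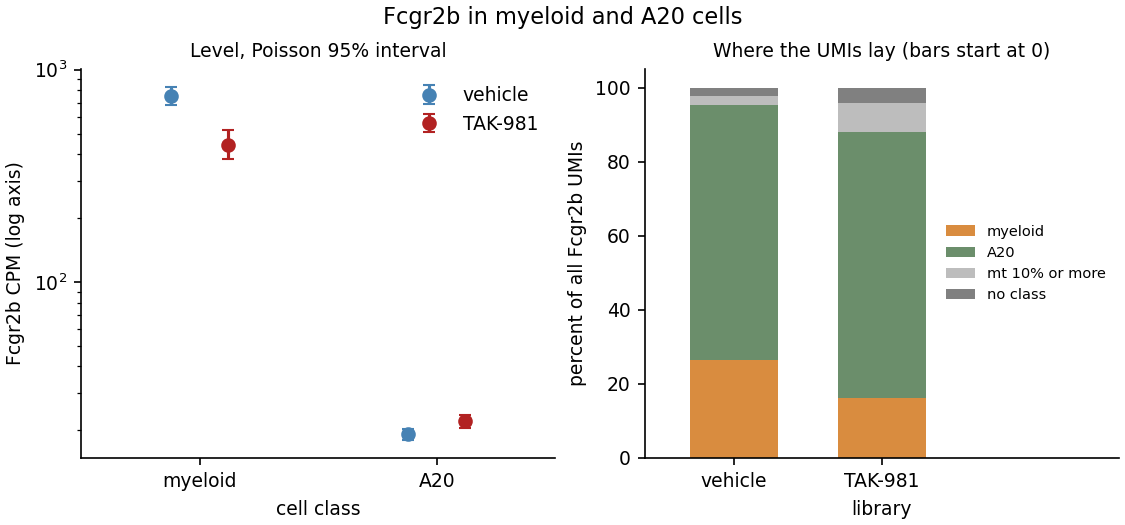
Left, Fcgr2b CPM (log axis) in myeloid and A20 cells of each library with exact Poisson 95% intervals; right, percent of each library's Fcgr2b UMIs by cell class (bars from 0). Myeloid cells lie at 444 and 751 CPM, A20 cells at 22.0 and 19.1 CPM, and A20 cells hold 71.8% and 68.8% of the UMIs.

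Genes around the receptors were read from 7 lists, each by the number of its measured genes (10 or more UMIs) at least 2-fold higher or lower in TAK-981 myeloid cells, beside 11.1% and 13.7% of all genes. At 50 or more UMIs the second share was 5.99%. Among other Fc receptors 3 of 13 were measured. Fcgrt, the neonatal receptor that recycles IgG, was at a ratio of 0.976, Fcrls was 2.36-fold lower (15 against 51 UMIs), and Trim21, which detects antibody inside cells, had 11 UMIs against 1, a log2 ratio of 3.98 (1.20 to 9.41). Fcer1a and Ms4a2, the other chains of the IgE receptor that shares Fcer1g, were at 0 in both libraries.

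Among ITAM adaptors and their partner receptors, 2 of 14 were higher and 2 lower (median log2 ratio -0.04). Tyrobp (DAP12), which pairs with other receptors as Fcer1g does with these, was at 2781 and 2786 CPM, a log2 ratio of 0.00 (-0.12 to 0.11). The fungal sensor Clec4n (Dectin-2), which itself signals through Fcer1g, was 3.44-fold lower (101 against 500 UMIs), and the lipid receptor Trem2 2.85-fold lower (10 against 41). Hcst (DAP10) was 2.77-fold and Trem3 2.52-fold higher, on 25 and 21 UMIs. The ITAM chains Fcer1g and Tyrobp thus lay within 1.21-fold between libraries, while partner receptors of this list lay on both sides.

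Signalling genes below the Fc receptors had 3 of 22 higher and 2 lower (median 0.32, with 15 of 22 above 0). The Src family kinase Lyn, which phosphorylates both ITAM and ITIM, was 1.73-fold higher (193 against 160 UMIs, log2 0.79, 0.48 to 1.11), and Rac2, a GTPase of the oxidase, 1.52-fold (log2 0.60, 0.31 to 0.89). Syk, the kinase that docks on the ITAM, was at -0.48 (-1.12 to 0.15). The adaptors Grb2 and Lat2 were 3.00-fold and 2.31-fold lower. Card9, which links Syk to NF-kB, was 2.59-fold higher (18 against 10 UMIs) and the PI3-kinase subunit Pik3cg 3.60-fold (10 against 4).

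Inhibitory ITIM receptors and phosphatases, the group to which Fcgr2b belongs by function, had 2 of 18 higher and 4 lower (median 0.17). Lilrb4a, the most abundant, was 1.41-fold higher (log2 0.49, 0.30 to 0.69), and Lilr4b was at 1.02-fold. Clec12a was 2.72-fold, Clec4a2 2.07-fold and Lair1, a collagen receptor, 3.48-fold lower, the last on 4 against 20 UMIs. Cd72, another inhibitory receptor of this list, had 0 UMIs against 15. This is at least 3.48-fold lower when the 0 is read as a floor of 3 UMIs over the class, while the exact interval of the ratio reached 0.401. Cd300lf was 2.19-fold higher. The phosphatases that Fcgr2b and its relatives recruit, Inpp5d (SHIP1) and Ptpn6 (SHP-1), were at 0.43 (-0.69 to 1.54) and 0.10 (-0.30 to 0.50). Of the 18 genes 11 lay above 0.

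Phagocytosis and oxidase genes had 2 of 20 higher and 1 lower (median -0.02). The actin nucleator subunit Actr2 was 2.50-fold and the lysosomal membrane gene Lamp2 2.06-fold higher, and the lysosomal protease Ctsd 2.69-fold lower (132 against 510 UMIs). Cyba, a subunit of the oxidase, was 1.32-fold lower and the protease Ctss 1.30-fold lower. Cybb, the catalytic partner of Cyba, was 1.70-fold higher (1.49 to 1.95).

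Both interferon lists were higher in TAK-981 myeloid cells. Of 12 measured interferon gamma type genes 6 were at least 2-fold higher and 0 lower, with a median log2 ratio of 1.32 and 11 of 12 above 0. Gbp2, a guanylate-binding protein, was 8.84-fold higher, its relative Gbp4 4.31-fold, the chemokine Cxcl9 6.03-fold, the JAK inhibitor Socs1 3.18-fold and Irf1 1.89-fold. The type I interferon list had 12 of 12 at least 2-fold higher (median 6.70, also with Ifit1, at 311 UMIs against 0, set to the 149-fold that a floor of 3 UMIs over the class gives; its exact interval began at 121-fold). Isg15 was 19.5-fold, Irf7 12.2-fold and the chemokine Cxcl10 43.2-fold higher, and Rsad2 had 629 UMIs against 3. Fcgr1, at 2.52, thus lay above the median of the first list and below every gene of the second, whose lowest was 3.61. Whether its difference goes with either kind of interferon was not tested. Of genes with a promoter window, a GAS match was found for 4 of 11 in the first list and 1 of 9 in the second, and an ISRE match for 4 of 11 and 5 of 9. Over 27025 genes with a window the shares were 8.13% and 3.46%. In the other 5 lists, of 13 to 19 such genes, 0 to 2 had a GAS match and 0 to 4 an ISRE match.

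**Figure D5:**
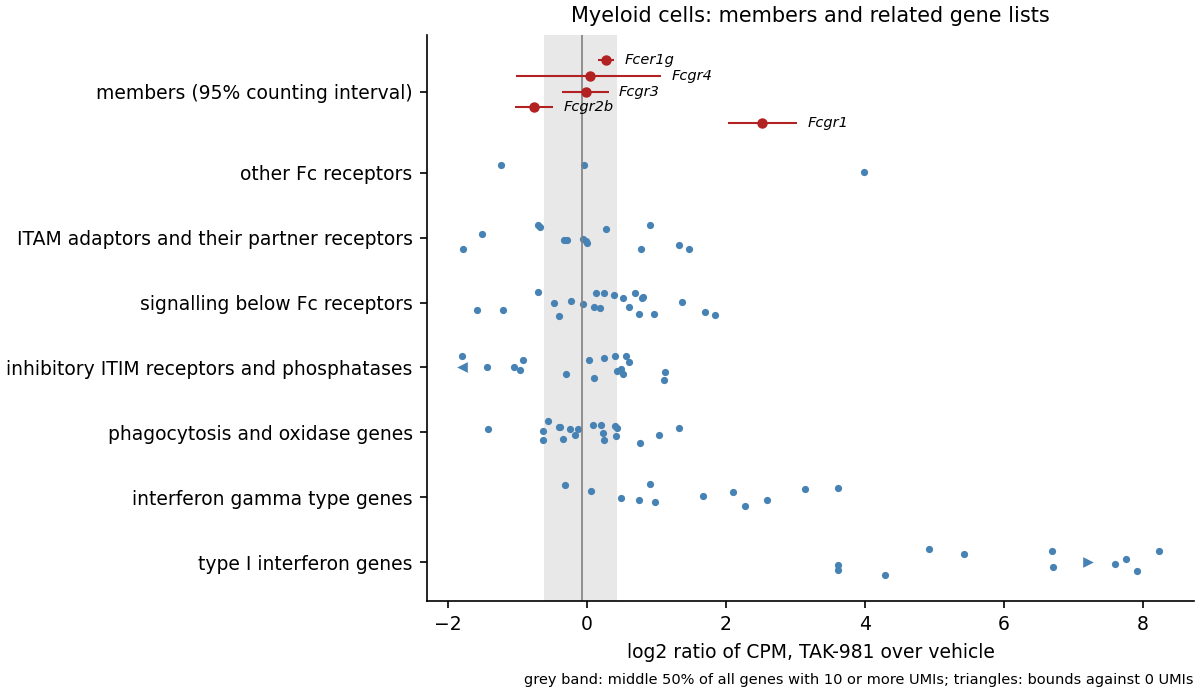
Log2 ratio of CPM, TAK-981 over vehicle, in myeloid cells for the 5 genes (red, with 95% counting intervals) and for each measured gene of 7 lists (blue points; triangles mark bounds against 0 UMIs, vertical scatter is for legibility). The grey band spans the middle 50% of all 6372 genes (-0.61 to 0.43): Fcgr1 at 2.52 lies to its right, Fcgr2b at -0.76 just to its left, and the interferon lists reach furthest right.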

How the data were processed

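Per the file headers, the values the authors deposited are raw whole-number UMI counts, 1 matrix of genes by barcodes for each library. Cell Ranger 2.1.1 and Seurat 2 are named in the submitters' processing notes, with no role given. Build and annotation: not given in the sources used here. No barcode had under 4670 (TAK-981) or 5965 (vehicle) UMIs, so the deposited barcodes were a selection.

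Counts were summed over the cells of a class and divided by the class sum (CPM), with exact Poisson intervals. Ratios carry exact conditional binomial intervals and shares of cells Clopper-Pearson intervals, all at 95%. Beside a share of 0 stands the share that 3 cells would make. Intervals take each UMI as independent and cover counting error only. For thinned values, 4000 UMIs were drawn from each cell without replacement (seed 0), a depth that all cells exceeded. The mitochondrial limit of 10% was applied to all classes. No doublet caller was run: 4 myeloid cells of each library held a Cd79a UMI. The scripts were tested on simulated data. Software was matplotlib 3.10.9, pandas 2.3.3, scipy 1.17.1 and numpy 2.4.6 under Python 3.11.15.

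From each list, the text names the 2 genes with the most UMIs and up to 4 genes at least 2-fold different with an interval that excludes a ratio of 1. Syk, Inpp5d, Ptpn6, Cd72, Cybb, Ifit1 and the IgE receptor chains were named for their roles, after their values were seen. The genes and lists were chosen with earlier results of these data known. The settings with only cells with Ccr2 and no C1q, and without cells with Mgl2 and Cd209a, were chosen after seeing the data. For 2 genes of these lists the values are not reported here, and both were left out of the lists' counts and sums.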

Additional observations from a re-analysis of the deposited data

Results flagged for a closer look

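Fcgr2b, the inhibitory receptor, had ratios on opposite sides of 1 in the 2 cell classes that carry it, as long as all UMIs were counted. Its log2 ratio of TAK-981 over vehicle was -0.76 (-1.03 to -0.49) in myeloid cells and 0.20 (0.06 to 0.34) in A20 cells, and neither counting interval included 0. After each cell was thinned to 4000 UMIs the values were -0.64 (-1.08 to -0.20) and -0.046 (-0.38 to 0.28). The second interval included 0, so no direction is given for A20 cells. With 1 library per arm the difference between the classes was not tested.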

How the results depend on the processing

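No paired analysis was possible because there was 1 library per arm and no replicate to pair. Of 116 recomputed values 105 stayed within the counting interval of the reported value or, for counts of genes, within 1.5 times the reported count. Part of this was fixed in advance. Without the mitochondrial limit the myeloid cells were the same 39 and 43. Median-of-ratios scaling moved every myeloid log2 ratio by the same 0.026. The log2 ratio of Fcgr1 in myeloid cells ran from 2.30 to 2.84 over 13 alternatives, that of Fcgr2b from -1.03 to -0.64, Fcgr3 from -0.20 to 0.15, Fcgr4 from -0.17 to 0.35 and Fcer1g from 0.19 to 0.33, so Fcgr3 and Fcgr4 lay on both sides of 0. Fcgr2b in A20 cells turned to -0.046 when cells were thinned, and lay between 0.12 and 0.29 in the 8 other alternatives. The difference in the activating share was 25.2 to 34.0 percentage points, 34.0 in cells with Ccr2 and no C1q. Of 6372 genes, 1579 were at least 2-fold different (708 higher, 871 lower). This became 4575 (1922, 2653) with no minimum of UMIs, 374 (234, 140) at a minimum of 50 and 945 (475, 470) after thinning, and the excess of lower genes was not found at a minimum of 50 or after thinning. The same settings gave 4, 1 and 1 in place of 2 other Fc receptors. At a minimum of 50 UMIs, 2 ITAM adaptor genes were different in place of 4, 2 signalling genes in place of 5 and 3 inhibitory genes in place of 6. After thinning 1 signalling gene was higher and 3 lower in place of 3 and 2, and 1 phagocytosis gene higher and 2 lower in place of 2 and 1. Fewer or more genes were counted under these settings by construction. The alternative with only cells of 5 or more C1q UMIs could not be run, since 0 TAK-981 cells qualified. The class of 39 and 43 cells limits the precision, most of all for Fcgr4, and the mice behind 1 library cannot be told apart from treatment.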
